A study of Homo sapiens with 45 samples.

Results

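The genes described here are 33 members of the amino acid and integrated stress response, chosen by name as genes of the ATF4 pathway, of amino acid transport and of tRNA charging, out of 41582 genes in the transcript tables. All 33 passed the filter on low counts, as did 23589 genes over 45 libraries. They were ordered by role into 7 transcription factors, 5 feedback and stress effectors, 4 enzymes of serine, glycine and asparagine synthesis, 4 mitochondrial one-carbon and phosphoenolpyruvate enzymes, 6 amino acid transporters, 4 tRNA synthetases, and 3 secreted or surface proteins.

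Polyadenylated RNA was sequenced in triplicate, with no treatment named, from 7 established lines of Ewing sarcoma (TC71, SKES1, RDES, MHHES1, EW24, EW3 and A673) and 6 of osteosarcoma (U2OS, SAOS2, MG63, KHOS, HOS-MNNG and G292). A673 was also studied with sh908, a hairpin directed at KCNN1, which encodes a small-conductance calcium-activated potassium channel, in 3 libraries with doxycycline added, where the hairpin is described as active, and 3 without it. The dose and duration of doxycycline, the hairpin's control and the culture conditions are not stated in the labels, and no parental A673 library with doxycycline was analysed here. G292 and HOS-MNNG are labelled as single clones (A141B1 and clone 5). HOS-MNNG and KHOS both descend from the HOS line, so the osteosarcoma lines are not all of separate origin. Because each library is bulk RNA, a change in the share of cells that respond and a change in RNA per cell cannot be told apart.

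The integrated stress response starts when one of several kinases, sensing for example amino acid shortage, misfolded protein in the endoplasmic reticulum or haem deficiency, phosphorylates the translation factor eIF2. General protein synthesis then slows, while translation of ATF4, a basic leucine zipper transcription factor, goes up through upstream open reading frames in its messenger RNA. ATF4 pairs with C/EBP proteins at short composite elements and raises genes that import and make amino acids, charge tRNAs and, through DDIT3 and TRIB3, limit or end the response. Ewing sarcoma cells carry an EWSR1 fusion, most often EWS::FLI1, and many tumour cells draw on this pathway for serine, asparagine and cystine.

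Library totals ran from 15974173 to 51413254 estimated counts. Protein kinase C beta (PRKCB), a gene typical of Ewing sarcoma, lay between 55.3 and 233 TPM, the length-scaled share of transcripts, in the Ewing sarcoma lines and at or under 0.132 TPM in the osteosarcoma lines. NKX2-2 and STEAP1 also separated the lines, while NR0B1 (lowest Ewing sarcoma line 0.316 TPM, highest osteosarcoma line 2.45 TPM) and CD99 (290 and 944 TPM) overlapped. Of 5 genes of osteoblasts and bone matrix, 4 had higher line medians in osteosarcoma: COL1A1 (635 against 10.8 TPM), COL1A2 (61.7 against 1.12 TPM), RUNX2 (9.09 against 1.06 TPM) and SPARC (389 against 92.6 TPM). The fifth, ALPL, had 4.37 TPM in osteosarcoma and 36.1 TPM in Ewing sarcoma, and the ranges of lines overlapped for all 5. The leukocyte gene PTPRC was at or under 1.23 TPM in all 13 lines. Libraries that stood apart touch the results that follow: EW3 replicate 1, in which the member genes were raised together; TC71 replicate 3, with 7.24% of all genes at least 2-fold under both other TC71 libraries; and replicate 3 of both sh908 arms, with 13.4% of genes at least 2-fold above its partners without doxycycline and 12.3% with it. EW3 line means, apart from that of NUPR1, and the main tumour type results are given with and without EW3 replicate 1. No fit was made without TC71 replicate 3 alone; leaving out TC71 as a line is among the alternatives.

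**Figure D1:**
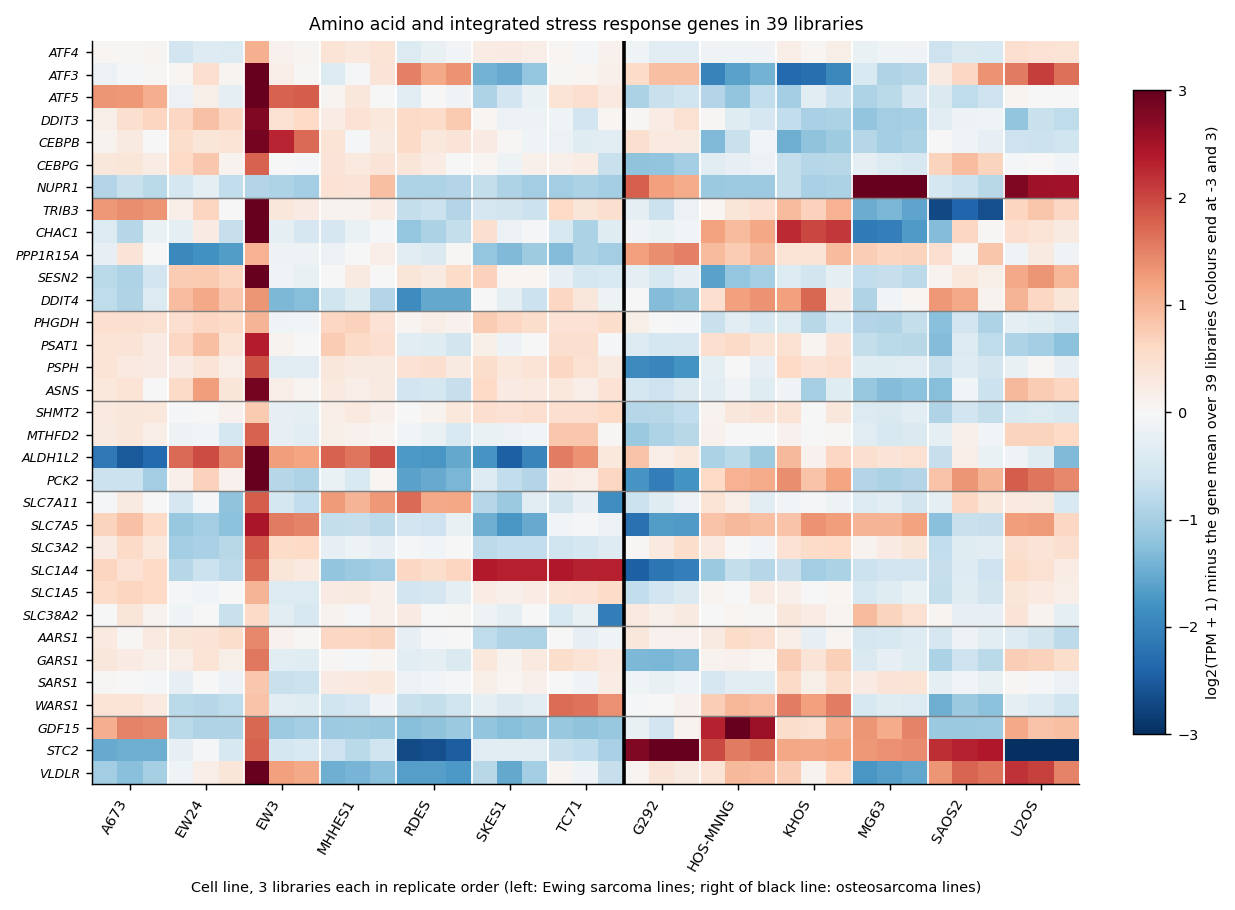
Heat map of the 33 member genes (rows, grouped by role) in 39 libraries (columns, 3 per line in replicate order, Ewing sarcoma lines left of the black line). Colour is log2(TPM + 1) minus the gene's mean over the 39 libraries; the first EW3 column is red for nearly all rows, and it held the highest value of all 39 libraries for 25 of the 33 genes (8.08% of all genes).

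The member genes were higher in EW3 replicate 1 than in the other libraries of that line. All 33 were highest in this library among the 3 of EW3, against 46.2% of all genes tested, and 28 were at least 2-fold above both others on the log2(TPM + 1) scale, against 0.992% of all genes. The shares of all genes were not matched for expression level. Put the other way, 28 of the 234 genes that were that far above in this library, or 12%, were members. The ratio of replicate 1 to the mean of the other libraries had a median of 3.85 over the members and ranged from 1.26 for NUPR1 to 40.9 for GDF15. Both ends rest on low values: NUPR1 was under 1 TPM in all 3 libraries, and GDF15 in replicates 2 and 3. By range on the log2(TPM + 1) scale CHAC1 ranked 1 (4.60) and GDF15 ranked 6 (2.81). Member transcripts together took 1.15% of all TPM in replicate 1, and 0.375% and 0.361% in replicates 2 and 3. These are values of single libraries, and no test was made of one library against the others.

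Among the transcription factors, ATF4 itself stood at 1151, 600 and 586 TPM in EW3 replicates 1 to 3. ATF3, a stress-induced repressor of the same family, was at 79.3, 10.5 and 9.21 TPM, and ATF5, a related factor that ATF4 induces, at 1319, 211 and 219 TPM. DDIT3, which encodes the pro-apoptotic factor CHOP, was at 231, 45.3 and 50 TPM. The mRNA of ATF4 was thus just under 2-fold higher, near the ratios of SLC38A2 (1.97), SLC7A5 (1.88) and CEBPB (1.79), while ATF3, ATF5 and DDIT3 differed several-fold. CEBPG, a partner of ATF4, was at 129, 37.9 and 36.1 TPM, and CEBPB at 349, 234 and 155 TPM. NUPR1, a small stress-induced chromatin protein, was at 0.391, 0.355 and 0.265 TPM and stayed under 1 TPM in each of the 3 libraries.

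The feedback and stress effectors had a median ratio of 14.7, the highest of the 7 roles. CHAC1, which degrades glutathione, stood at 208, 9.13 and 7.59 TPM, and was ranked first of all genes by its distance from the higher of the other libraries. TRIB3, a pseudokinase that restrains ATF4, was at 343, 24.3 and 22.4 TPM. SESN2, which reports leucine shortage to mTORC1, was at 139, 9.69 and 8.88 TPM. In each of these genes the lone high library was replicate 1, and the other pair of libraries lay close together. DDIT4, an mTORC1 inhibitor, was at 77.7, 11.5 and 12 TPM, and PPP1R15A, the GADD34 subunit that brings a phosphatase to eIF2, at 87, 37.5 and 37.3 TPM.

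Among the enzymes the ratios ran from 2.07 for SHMT2 to 20.1 for PCK2. ASNS, asparagine synthetase, was at 596, 92.1 and 85.4 TPM. PSAT1 and PSPH, the second and last enzymes of serine synthesis, were at 933, 193 and 182 TPM and at 167, 35.3 and 34.5 TPM. PHGDH, the first enzyme of that route, had a ratio of 2.18, the lowest of the 4 synthesis enzymes. PCK2, mitochondrial phosphoenolpyruvate carboxykinase, was at 170, 8.65 and 8.26 TPM, a ratio apart from those of the mitochondrial folate enzymes MTHFD2 (4.26), ALDH1L2 (3.85) and SHMT2.

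Transporters and synthetases were also higher in replicate 1. Transporter ratios ran from 1.88 for SLC7A5, the LAT1 chain that imports leucine, to 5.91 for SLC7A11, the cystine importer, which stood at 66.8, 12.2 and 10.4 TPM. The synthetases ranged from 2.3 for WARS1 to 3.83 for GARS1, which was at 721, 190 and 186 TPM. Of the secreted and surface proteins, GDF15, a stress-induced cytokine, was at 6.94, 0.135 and 0.205 TPM. STC2, stanniocalcin 2, was at 61, 11.6 and 12.3 TPM, and VLDLR, a lipoprotein receptor, at 53, 7.71 and 7.23 TPM. An antisense gene, VLDLR-AS1, was high in the same library, at 18.7, 1.55 and 1.86 TPM, as was the pseudogene ASNSP1, at 13.5, 1.57 and 2.13 TPM. A kit that keeps strand was used, but the strand setting of the quantification is not stated, so reads of a gene and its antisense partner, or of a gene and a near copy, may have been shared.

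**Figure D2:**
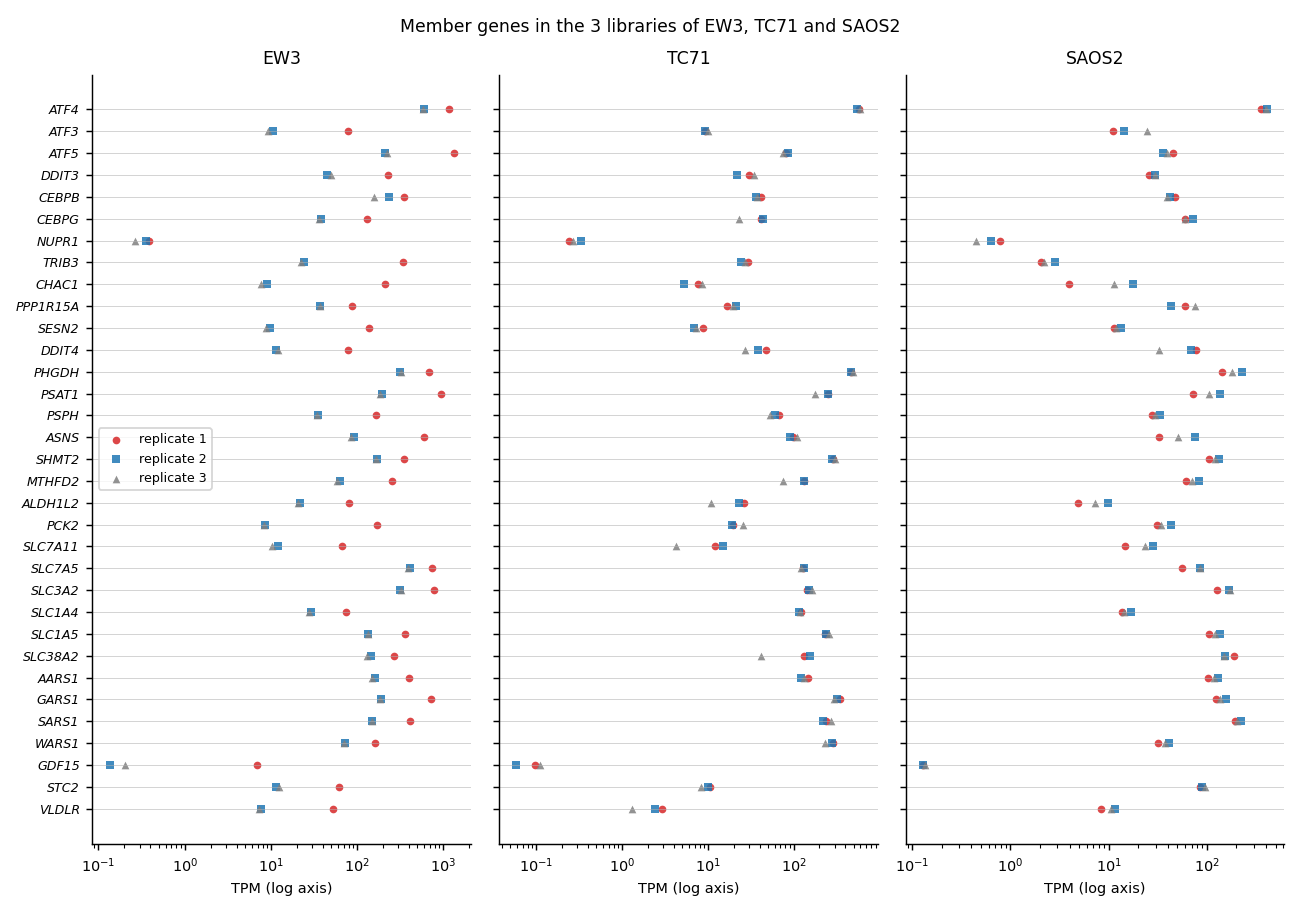
TPM (log axis) of each member gene in the 3 libraries of EW3, TC71 and SAOS2. In EW3 the red circles of replicate 1 lie to the right for all 33 genes; in TC71 replicate 3 (grey triangles) drops for SLC38A2, SLC7A11 and ALDH1L2, and in SAOS2 replicate 1 is the lowest library for 27 genes.

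Genes outside the member list differed by pathway in EW3 replicate 1, where 46.2% of all genes were the highest of the 3 libraries and 39% the lowest. Of 14 other reported ATF4 targets, 12 were highest in EW3 replicate 1 with a median difference of 1.75 on the log2(TPM + 1) scale, among them ADM2 (33.4, 2.46 and 2.25 TPM), CTH (49.7, 5.68 and 5.11 TPM) and the glycine transporter SLC6A9 (119, 19 and 19.1 TPM). Of 16 other cytosolic tRNA synthetases 13 were highest there, with a median of 0.51, against 6 of 17 mitochondrial synthetases with a median of -0.06. Other genes close to the members in function moved less: 9 of 16 other amino acid transporters were highest there (median 0.11), 11 of 17 eIF2 kinases, subunits and regulators (0.09), and 3 of 12 other serine, glycine and folate enzymes (-0.18). The ATF6 and XBP1 branch of the unfolded protein response did not move as a block: 8 of its 20 genes were highest and the median was -0.19. Its main chaperone HSPA5 was lower, at 93.7, 246 and 249 TPM, and its calcium-binding chaperone CALR likewise, at 358, 824 and 818 TPM, whereas HERPUD1 was at 115, 24 and 22.1 TPM. Medians over hypoxia genes (-0.08), p53 targets (0.10), NRF2 targets (0.02) and immediate early genes (0.04) lay between -0.08 and 0.10, and that of interferon genes was -0.16, with 10 of 13 lowest in this library. ERG, at 31.8, 36.6 and 35.9 TPM, and KCNN1, at 41, 42.7 and 38.4 TPM, were alike in the 3 EW3 libraries.

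ATF4 acts on composite C/EBP-ATF elements whose common form is TGATGNAA, and the promoter windows of members were searched for it because these genes were high in the same library. RefSeq promoter windows of GRCh38.p14 were at hand for 28 of the 33 members, and the 250 bases before each listed start were scanned for TGATGNAA and its reverse complement TTNCATCA. The element was found in at least one window of 7 of the 28 members (25%), against 3.89% of all 27305 genes with a window, and in 7 of 46 member windows (15.2%) against 3.14% of all 35116. The members were chosen by name as genes of the ATF4 pathway, so a higher share may follow from that choice. It gives no separate information on EW3 replicate 1. ASNS, CHAC1, AARS1 and ATF3 had it before their most upstream listed start, and these are shown with up to 40 bases on each side, 5′ to 3′ in the direction of the gene, the element in capitals. GARS1, CEBPG and SLC1A5 had it before a start further downstream.
ASNS: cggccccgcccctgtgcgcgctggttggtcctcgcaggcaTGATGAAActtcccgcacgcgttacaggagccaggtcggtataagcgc
CHAC1: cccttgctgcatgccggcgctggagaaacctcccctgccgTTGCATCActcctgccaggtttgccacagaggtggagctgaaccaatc
AARS1: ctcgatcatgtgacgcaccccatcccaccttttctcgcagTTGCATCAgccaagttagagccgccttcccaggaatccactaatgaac
ATF3: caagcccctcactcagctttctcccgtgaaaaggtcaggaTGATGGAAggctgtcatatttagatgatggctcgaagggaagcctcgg
The ASNS stretch is chr7:97872429-97872516 on the minus strand, with the element starting at base -68 from the listed start. That of CHAC1 is chr15:40953222-40953309 on the plus strand, with the reverse element at -209. For AARS1 it is chr16:70289646-70289733 on the minus strand, reverse element at -187, and for ATF3 chr1:212565176-212565263 on the plus strand, element at -191. A match describes these letters and does not show binding. TRIB3 and PCK2, with EW3 ratios of 14.7 and 20.1, had no match in their windows.

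In TC71 the members did not move together. Replicate 3 was the lowest library for 14 of 33 members, fewer than the 58.2% of all genes, and 3 members were at least 2-fold under both other libraries, against 7.24% of all genes. On log2 CPM it was lowest for 8 members, and the median member deviation from the line mean was 0.27 in place of -0.01. SLC38A2, the neutral amino acid transporter SNAT2, was at 132, 155 and 41.9 TPM in replicates 1 to 3. SLC7A11 was at 12, 15.2 and 4.26 TPM, and ALDH1L2 at 26.5, 23.1 and 10.8 TPM. CEBPG followed, at 41.9, 43.6 and 23.2 TPM, and DDIT4, at 48, 38.8 and 27.4 TPM. Replicate 3 was the low library in each of these 5, which had the widest ranges among the members in TC71.

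In SAOS2 the members were lower in replicate 1. It was the lowest library for 27 of 33 members, against 34.1% of all genes, although by little, with a median deviation of -0.15 from the line mean against 0.01 for all genes. The widest ranges were those of CHAC1 (3.92, 17.7 and 11.4 TPM) and ASNS (32.2, 75.7 and 51 TPM), both lowest in replicate 1 and highest in replicate 2. SLC7A11 had the same order, at 14.6, 28.5 and 23.3 TPM. DDIT4 did not share it and was lowest in replicate 3, at 77.3, 69.1 and 32.9 TPM, where ATF3 was highest, at 11, 14.4 and 24.3 TPM.

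Across the 13 lines 26 of the 33 members varied more than the median gene. The standard deviation (SD) of the line means had a median of 0.74 over the members on the log2(TPM + 1) scale, against 0.53 over all genes tested. The genes were not matched for expression level, and the added 1 narrows the spread of genes at low TPM. Without EW3 replicate 1, an alternative chosen after seeing the data, the median was 0.69, with 24 members above the 0.53 of all genes. The share of variance between lines had a median of 74.6% over the members against 91.9% over all genes. Without that library the members' median share was 93.6% and that of all genes 92.5%, so that 1 library of 39 set the difference. EW3 was the highest line for 18 of the 33 members with its 3 libraries and for 4 (ATF5, CEBPB, SLC7A5 and SLC3A2) without replicate 1, when U2OS was highest for 8. G292 was the lowest line for 9 members.

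STC2 varied most between lines (SD 1.93 on the log2 scale). Its mean was 146 TPM in G292, 89.8 in SAOS2, 60.3 in HOS-MNNG, 46.3 in MG63 and 39.8 in KHOS, then 28.3 in EW3 (11.9 without replicate 1, under EW24 and SKES1), 14.4 in EW24, 13.5 in SKES1, 10.5 in MHHES1, 9.6 in TC71, 5.58 in A673, 2.03 in RDES and 0.407 in U2OS. Only 4 of the 12 neighbouring pairs of lines in this order had overlapping libraries. U2OS was thus the lowest of 13 lines while the other 5 osteosarcoma lines were the highest.

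NUPR1 was at 21.3 TPM in MG63, 14.9 in U2OS, 5.82 in G292 and 2.89 in MHHES1, and under 1 TPM in the remaining 9 lines, from 0.815 in EW24 through 0.617 in SAOS2, 0.488 in A673, 0.397 in KHOS, 0.388 in SKES1, 0.361 in RDES, 0.337 in EW3 and 0.281 in TC71 to 0.2 in HOS-MNNG. Its high lines were set apart, and 7 of 12 neighbouring pairs, in the low stretch of the order, overlapped. ALDH1L2, the mitochondrial enzyme that makes NADPH from formyl folate, was at 41 TPM in EW3 (21 without replicate 1, under MHHES1 and EW24), 31.3 in MHHES1, 30 in EW24, 20.1 in TC71, 13.4 in KHOS, 12.3 in G292, 11.9 in MG63, 7.3 in SAOS2, 5.62 in U2OS, 3.94 in HOS-MNNG, 1.98 in RDES, 1.29 in SKES1 and 0.888 in A673. Both its highest and its lowest 3 lines were of Ewing sarcoma.

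SLC1A4, a transporter of alanine and serine, was at 119 TPM in both TC71 and SKES1, then 43.8 in EW3 (28.7 without replicate 1, under U2OS), 34.7 in RDES, 33.7 in A673, 30.5 in U2OS, 14.9 in SAOS2, 14.6 in MG63, 12.9 in EW24, 11.7 in KHOS and HOS-MNNG, 9.94 in MHHES1 and 4.07 in G292. VLDLR was at 22.6 TPM in EW3, 13.2 in U2OS, 10.1 in SAOS2, 5.46 in HOS-MNNG, 4.33 in KHOS, 3.47 in G292, 3.16 in EW24 and 2.22 in TC71, and under 1 TPM in A673 (0.747), SKES1 (0.743), MHHES1 (0.444), MG63 (0.189) and RDES (0.166). GDF15 was at 15 TPM in HOS-MNNG, 5.21 in A673, 5.04 in MG63, 3.76 in U2OS, 2.97 in KHOS, 2.43 in EW3 and 1.11 in G292, and from 0.329 in EW24 through 0.142 in MHHES1, 0.131 in SAOS2, 0.0887 in TC71 and 0.0564 in RDES to 0.0409 in SKES1. The highest lines for SLC1A4 were of Ewing sarcoma, whereas for VLDLR and GDF15 the high lines included both tumour types; without replicate 1 the EW3 mean of VLDLR was 7.47 TPM and that of GDF15 0.17 TPM.

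ATF4 mRNA varied little. It stood at 779 TPM in EW3 (593 without replicate 1), 756 in U2OS, 721 in MHHES1, 647 in SKES1, 613 in KHOS, 575 in TC71, 574 in A673, 513 in HOS-MNNG, 497 in MG63, 469 in RDES, 461 in G292, 401 in EW24 and 390 in SAOS2, a range of 2-fold, and 9 of 12 neighbouring pairs overlapped. DDIT3 was at 109 TPM in EW3 (47.6 without replicate 1), 54.9 in EW24, 51.8 in RDES, 45.3 in A673, 41.5 in MHHES1, 39.4 in G292, 31.1 in SKES1, 28.8 in TC71, 28.5 in SAOS2, 27.5 in HOS-MNNG, 17.8 in U2OS, 17.5 in KHOS and 15.2 in MG63. The transcripts of DDIT3 overlap those of MARS1 on chromosome 12, so some of its reads may have been shared. ASNS was at 258 TPM in EW3 (88.7 without replicate 1), 140 in U2OS, 138 in EW24, 105 in SKES1, 99.9 in TC71, 95.7 in MHHES1, 95.3 in A673, 66.5 in HOS-MNNG, 58.3 in KHOS, 55.4 in G292, 52.9 in SAOS2, 52.6 in RDES and 33.8 in MG63. EW24 and U2OS, with similar ASNS, lay near opposite ends of the order by ATF4.

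**Figure D3:**
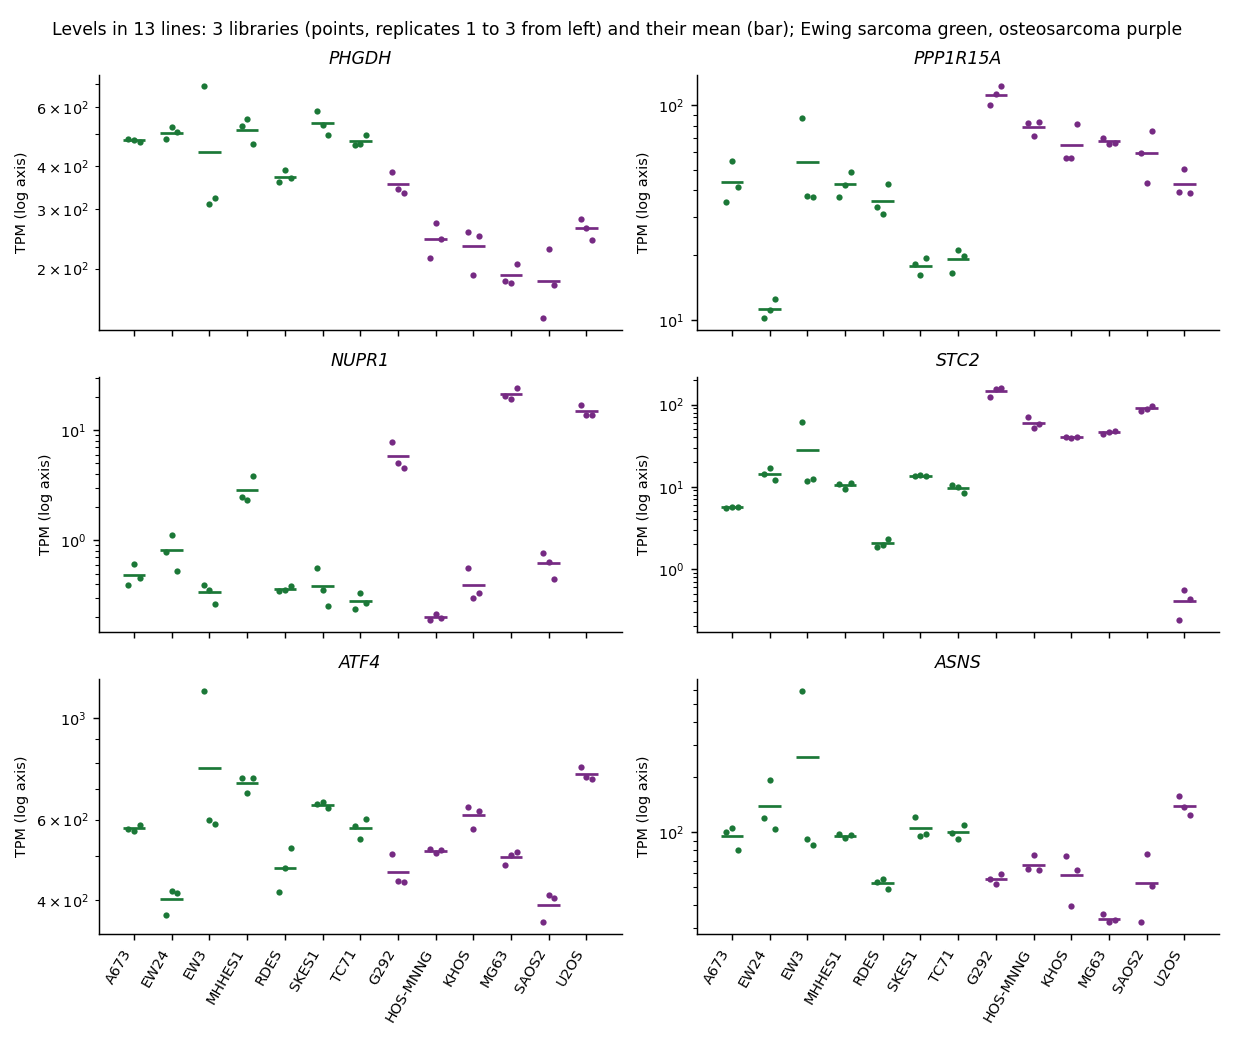
TPM (log axis) of 6 member genes in the 13 lines, with 3 libraries as points (replicates 1 to 3 from left) and their mean as a bar, Ewing sarcoma lines in green and osteosarcoma lines in purple. PHGDH is higher in the Ewing sarcoma lines, STC2 is low in U2OS at 0.407 TPM, and EW3 replicate 1 is the high green point for ATF4 and ASNS.

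From line to line the members did not go up and down as one block. Over the 528 pairs of members, the median Pearson r of the log2 line means was 0.12, and 0.05 without EW3 replicate 1, against 0.01 and -0.01 for members paired with all other genes tested. Without that library 55 pairs (10.4%) had an r above 0.5, against 6.95% of pairs with other genes. These correlations are over 13 lines that share libraries and total scaling, and they are given as descriptions. DDIT4 with PCK2 was the closest pair (0.88), followed by PSPH with SHMT2 (0.83), SLC1A5 with GARS1 (0.82), PSPH with GARS1 (0.81) and DDIT3 with CEBPB (0.80). SLC7A5 and SLC3A2, the 2 chains of the LAT1 transporter, had an r of 0.70. ATF4 had an r of 0.46 with ASNS, 0.56 with TRIB3 and -0.29 with DDIT3.

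The comparison of the 7 Ewing sarcoma lines with the 6 osteosarcoma lines, the contrast the series was designed for, was fitted on counts summed per line. PHGDH was higher in Ewing sarcoma lines, and PPP1R15A and NUPR1 were lower. These 3 of 33 members passed an adjusted p of 0.05 in edgeR's quasi-likelihood test with Benjamini-Hochberg adjustment, against 14.4% of 22000 genes tested, 5.96% of them called higher and 8.4% called lower. The members' share was therefore no higher than that of all genes. Of the 33 fold changes 20 were above 0, with a median of 0.19 on the log2 scale against -0.06 for all genes. Without EW3 replicate 1 there were 18 above 0, with a median of 0.02, and 4 members were called (STC2 in addition) among 14.7% of all genes.

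PHGDH, which commits glycolytic carbon to serine, stood at 537 TPM in SKES1, 513 in MHHES1, 503 in EW24, 477 in A673, 475 in TC71, 441 in EW3 and 374 in RDES. The osteosarcoma lines had 354 TPM in G292, 263 in U2OS, 244 in HOS-MNNG, 233 in KHOS, 191 in MG63 and 183 in SAOS2. The means were 474 ± 53.9 TPM (SD, n = 7 lines) and 245 ± 61.9 TPM (SD, n = 6 lines), with no overlap between the groups of lines; 3.19% of all genes were as fully separated in this direction and 2.39% in the other. The log2 fold change was 0.82 (SE 0.21), with an edgeR adjusted p of 0.0213. It was the sole member to separate the lines, although without EW3 replicate 1 the EW3 mean was 317 TPM, under that of G292, and the log2 fold change was 0.76 with an adjusted p of 0.0455. The call held under all 22 alternatives run, with log2 fold changes from 0.72 to 0.95 and adjusted p from 0.000936 to 0.0455.

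PPP1R15A was at 111 TPM in G292, 78.8 in HOS-MNNG, 67.5 in MG63, 64.8 in KHOS, 59.6 in SAOS2 and 42.8 in U2OS. The Ewing sarcoma lines had 53.9 TPM in EW3, 43.9 in A673, 42.7 in MHHES1, 35.7 in RDES, 19.1 in TC71, 17.9 in SKES1 and 11.3 in EW24, so that EW3 and A673 lay above U2OS. Without replicate 1 the EW3 mean was 37.4 TPM, under U2OS, and the log2 fold change was -1.41 (edgeR adjusted p = 0.0144). The log2 fold change was -1.29 (SE 0.36, edgeR adjusted p = 0.0292), and 16 of 22 alternatives kept the call, with adjusted p from 0.00253 to 0.0601. With HOS-MNNG and KHOS counted as 1 line the adjusted p was 0.0507. NUPR1, at 0.794 ± 0.939 TPM (SD, n = 7 lines) and 7.21 ± 8.93 TPM (SD, n = 6 lines), had a log2 fold change of -3.28 (SE 1.04, edgeR adjusted p = 0.0499), and 10 of 22 alternatives kept the call, with adjusted p from 0.00185 to 0.247. MG63, U2OS and G292 carried the osteosarcoma mean of NUPR1, while HOS-MNNG was the lowest line of all.

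Members with large differences that missed the threshold had wide spread between lines of one tumour type. STC2 had a log2 fold change of -2.48 (SE 0.83, edgeR adjusted p = 0.0616); the adjusted p was 0.00588 without U2OS and 0.0319 without EW3 replicate 1. SLC1A4 had 1.90 (SE 0.64) and ATF5 1.78 (SE 0.60), both with an edgeR adjusted p of 0.0625; without EW3 replicate 1 the values were 1.83 and 1.10. GDF15 had -2.03 (SE 1.24, edgeR adjusted p = 0.299), with -2.49 without EW3 replicate 1, -3.26 without A673 and -1.14 without HOS-MNNG. By DESeq2, which called 24.5% of all genes, 7 members passed: PHGDH, SLC1A4, ATF5 and DDIT3 higher, and NUPR1, PPP1R15A and STC2 lower. Leaving out RDES, SKES1 or TC71 left PHGDH as the sole member called, among 11.2%, 10.6% and 11.8% of all genes.

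Taken by role, all 4 synthesis enzymes had fold changes above 0, from 0.51 to 0.83, with PHGDH called, against 46.6% of all genes above 0. Without EW3 replicate 1 they stayed above 0, with ASNS at 0.48, PSAT1 at 0.37 and PSPH at 0.35. Of the 7 transcription factors 6 were above 0, NUPR1 being the exception, but without EW3 replicate 1 there were 4, with ATF4 at -0.06 and ATF3 at -0.24. The 4 tRNA synthetases were close to 0, between -0.23 and 0.16, and none of them was called (unadjusted p from 0.463 to 0.693). ATF4 had a log2 fold change of 0.01 (SE 0.21). None of the 6 transporters was called, with values from -0.51 for SLC7A5 to 1.90 for SLC1A4 and 2 of them, SLC1A4 and SLC38A2, at an unadjusted p under 0.05.

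In the neighbouring pathways named here between 5.88% and 12.5% of the genes of a list were called, where 14.4% of all genes were called. Of the 13 tested among the other reported ATF4 targets, SLC7A3, a cationic amino acid transporter, was called (log2 fold change 4.84, SE 1.52, edgeR adjusted p = 0.048). Of 17 eIF2 kinases, subunits and regulators, EIF2AK3, the PERK kinase of the endoplasmic reticulum, was called lower (-1.34, SE 0.41, edgeR adjusted p = 0.043). Of 16 other cytosolic synthetases, LARS1 (0.80) and IARS1 (0.56) were called higher. Of 16 other amino acid transporters, SLC38A5 was higher (7.68) and SLC1A2 was lower (-3.12). In the ATF6 and XBP1 branch EDEM1 (-1.36) and SEL1L (-0.71) were lower, 2 of 20. Without EW3 replicate 1 the edgeR adjusted p was 0.0529 for SLC7A3, 0.0584 for LARS1 and 0.0778 for IARS1, and the other genes named from these lists were still called.

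In stress programmes that share inducers with ATF4, most calls were lower in Ewing sarcoma lines; of all genes 8.4% were called lower and 5.96% higher. For hypoxia 6 of 16 genes were called lower, with a median of -0.84, among them NDRG1 (-5.55) and ADM (-3.49), and for NRF2 targets 3 of 9, including NQO1 (-1.87). Of 11 immediate early genes 5 were lower and 1, EGR2 (4.07), was higher, with FOSB (-4.51) the furthest down. The p53 targets, with 2 of 19 lower (CDKN1A, -3.11, and GADD45A, -1.76), and the interferon genes, with 1 of 13 lower (IRF1, -1.70), were near the share of all genes.

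**Figure D4:**
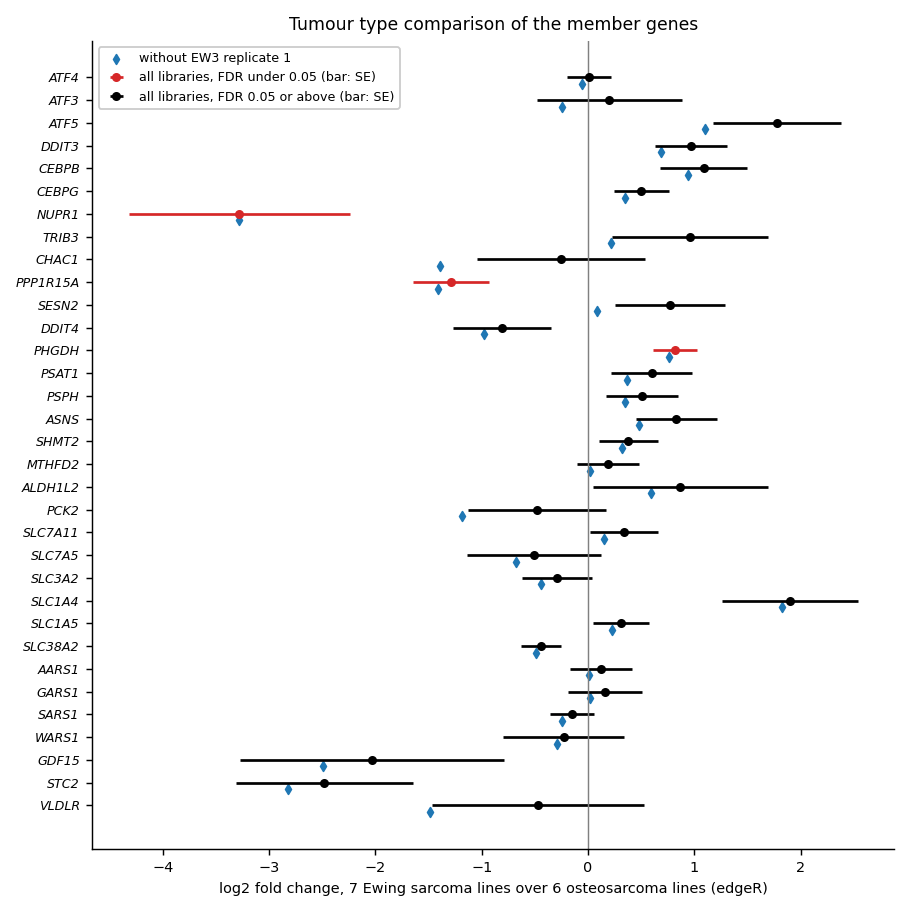
Log2 fold change of each member gene between 7 Ewing sarcoma and 6 osteosarcoma lines (edgeR, bars show the SE), red where the adjusted p is under 0.05. Blue diamonds leave out EW3 replicate 1; they sit to the left of most points, as for CHAC1 and VLDLR, and PHGDH, PPP1R15A and NUPR1 are red.

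Doxycycline in sh908 cells asked what follows when the hairpin against KCNN1 is switched on. KCNN1 was at 37.8, 35.3 and 18 TPM without doxycycline and at 10.2, 13.7 and 7.75 TPM with it, lower in every induced library than in any uninduced one. By edgeR's quasi-likelihood test on 3 against 3 libraries no gene of 14252 passed (0%), and 94 genes, 4 of them members, had an unadjusted p under 0.05. The counts were 2 genes by DESeq2 and 0 by limma voom, with no member in either. With the replicate number as a block, 80 of 15688 genes (0.51%; 0.249% of all called higher) and 4 members were called, all higher. These were TRIB3, SLC7A5, SLC3A2 and DDIT3.

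TRIB3 was at 55.6, 64.4 and 48.7 TPM without doxycycline and at 88.4, 102 and 113 TPM with it, every induced library above every uninduced one. Its log2 fold change was 0.88 (SE 0.12, adjusted p = 0.00958 by edgeR with the replicate block), and 0.84 with an adjusted p of 1 without it. DDIT3 went from 7.82, 9.22 and 36.2 TPM to 19.9, 15 and 69.4 TPM, higher within each pair but with overlap, since both replicate 3 libraries were high. The fold change was 1.02 (SE 0.17, adjusted p = 0.033 by edgeR with the block).

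SLC7A5 went from 138, 114 and 60.7 TPM to 182, 216 and 116 TPM (0.79, SE 0.11, adjusted p = 0.0136 by edgeR with the block). Its heavy chain SLC3A2 went from 262, 213 and 121 TPM to 346, 314 and 215 TPM (0.62, SE 0.11, adjusted p = 0.0336 by edgeR with the block). Both chains were lower in replicate 3 of either arm than in its partners and higher with doxycycline within each of the 3 pairs. The calls depended on the pairs, which rest on the replicate numbers, and the libraries do not clearly tell numbers 1 and 2 apart. With the block, leaving out pair 1 called 1 member (SLC7A5) among 10 of 15477 genes. Leaving out pair 3 called 3 (TRIB3, SLC7A5 and PPP1R15A, among 1.21% of all genes). Without pair 2 no member was called, and 18 of 33 members and 1254 of 15686 genes had an unadjusted edgeR p under 0.05. A single edgeR fit of all 45 libraries called 12 genes and no member. In that fit 3 members and 1523 of 23589 genes had an unadjusted p under 0.05.

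Within pairs the members were higher with doxycycline more often than genes in general. In pairs 1, 2 and 3, 25, 26 and 32 of 33 members were higher, against 39.5%, 57.1% and 40% of all genes, and 22 were higher in all 3 pairs, against 13.7% of all genes. The members' median differences were 0.15, 0.18 and 0.69 on the log2(TPM + 1) scale. Pair 3 therefore gave the widest difference, and it holds the libraries that stood apart: relative to its partners, uninduced replicate 3 was high for DDIT4 (2.32), DDIT3 (1.97) and PCK2 (1.43) and low for ATF5 (-1.89), SLC1A4 (-1.38) and SLC1A5 (-1.33). The part of that library in the result was not tested beyond leaving it out.

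All 5 feedback and stress effectors were higher in all 3 pairs, as were 6 of 7 transcription factors and 5 of 6 transporters, against 1 of 4 synthesis enzymes, 1 of 4 mitochondrial enzymes and 2 of 4 synthetases. ATF3 went from 2.51, 2.44 and 3.64 TPM to 4.86, 4.21 and 5.12 TPM, and GDF15 from 9.79, 9.57 and 12.2 TPM to 13.8, 15.9 and 26.1 TPM. With TRIB3 and PSPH they were the 4 members whose induced libraries all lay above the uninduced ones, as did those of 2.19% of all genes. Neither was called with the block: ATF3 had a fold change of 0.79 (adjusted p = 0.143 by edgeR) and GDF15 of 0.81 (adjusted p = 0.0677 by edgeR). CHAC1 had the largest value without the block, 1.07, but its pairs differed by 0.36, 0.51 and 2.21. ASNS and PSAT1 were near 0 or lower in pairs 1 and 2 and higher by 1.21 and 1.02 in pair 3.

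Of the other reported ATF4 targets 5 of 12 were higher in all 3 pairs, with medians of 0.02, 0.13 and 0.65. Also higher in all 3 pairs were 6 of 15 other amino acid transporters, 5 of 11 immediate early genes and 5 of 16 other cytosolic synthetases, against 13.7% of all genes. The ATF6 and XBP1 branch had medians of -0.07, 0.10 and -0.04 over 20 genes, and the cytosolic synthetases -0.01, 0.01 and 0.25 over 16. Of the p53 targets CDKN1A was called with the block (0.72, SE 0.11, edgeR adjusted p = 0.0181), and of the immediate early genes, whose pair medians were 0.11, 0.28 and 0.05, FOS was lower (-1.02, SE 0.19, edgeR adjusted p = 0.0463). Since no library of A673 without the hairpin received doxycycline here, the hairpin and the drug cannot be told apart.

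**Figure D5:**
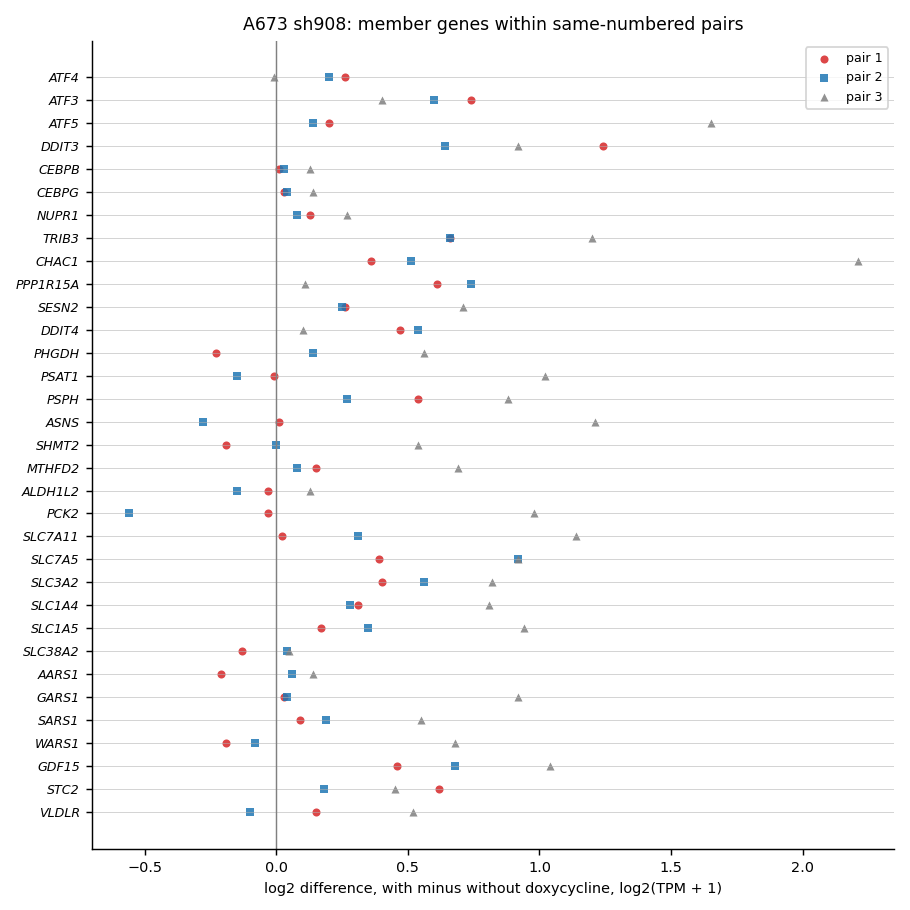
Difference of each member gene within same-numbered sh908 libraries, with minus without doxycycline, on the log2(TPM + 1) scale; symbols are pairs 1 to 3. Most points lie to the right of 0, with 22 of 33 genes higher in all 3 pairs, and pair 3 (triangles) lies furthest right for most genes, with exceptions such as ATF3, DDIT3 and PPP1R15A.

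Uninduced sh908 cells were also compared with parental A673, which shows how far the members differ before doxycycline. The uninduced libraries are those of the doxycycline comparison, so the 2 are not independent. Of 33 members 9 passed edgeR's quasi-likelihood test (6 higher and 3 lower in sh908 cells), against 15.1% of 15778 genes, 8.71% higher and 6.42% lower. The share of members called was above that of all genes.

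The 6 that were higher were enzymes, synthetases and GDF15. ASNS was at 99.7, 106 and 80.2 TPM in A673 and at 138, 240 and 167 TPM in sh908 cells (log2 fold change 1.40, SE 0.31, edgeR adjusted p = 0.031). PCK2 had the largest fold change, 1.84 (SE 0.45, edgeR adjusted p = 0.0412), but its values, 10.3, 10.2 and 7.53 TPM against 8.55, 26.1 and 42.5 TPM, overlapped. SHMT2 (0.96), AARS1 (1.08) and SARS1 (0.92) had edgeR adjusted p between 0.0183 and 0.0355, and in each of them all sh908 libraries were above all A673 libraries, as in 7.75% of all genes. GDF15 went from 4.15, 5.84 and 5.63 TPM to 9.79, 9.57 and 12.2 TPM (1.50, SE 0.26, edgeR adjusted p = 0.0168).

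SLC7A11, ALDH1L2 and ATF3 were lower in sh908 cells. SLC7A11 went from 17.5, 22.2 and 18.4 TPM to 5.57, 4.2 and 5.55 TPM (-1.49, SE 0.21, edgeR adjusted p = 0.0117). ALDH1L2 went from 1.14, 0.658 and 0.867 TPM to 0.0936, 0.135 and 0.445 TPM (-1.75, SE 0.39, edgeR adjusted p = 0.0321), and ATF3 from 7.84, 8.76 and 9.14 TPM to 2.51, 2.44 and 3.64 TPM (-1.15, SE 0.21, edgeR adjusted p = 0.0196). The libraries of the arms did not overlap in these 3 genes, but sh908 libraries were all below A673 libraries in TPM for 38.8% of all genes. Known ATF4 targets thus lay on both sides. DDIT4 had 1.42 (SE 0.52) and was not called (edgeR adjusted p = 0.111). Its values were 17.7, 15.8 and 22.7 TPM in A673 and 14.3, 20.3 and 89.5 TPM in sh908 cells, and without uninduced replicate 3 the fold change was 0.58 (edgeR adjusted p = 0.0135).

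In the other lists of the pathway the share of genes called ran from 0% to 26.7%, where 15.1% of all genes were called. Of the other reported ATF4 targets, EIF4EBP1 (1.34), PYCR1 and ADM2 (1.28) were called higher, 3 of 12 (25%), and of the 17 eIF2 genes PPP1R15B, the constitutive counterpart of PPP1R15A, was lower (-0.92). Of 16 other cytosolic synthetases 0 were called, and 15 had fold changes above 0, with a median of 0.33, where 50.5% of all genes were above 0. SLC7A8 (2.38) and SLC43A1 (1.06) led the other amino acid transporters, with 2 of 15 called higher and 2 lower (26.7% together), and ALDH1L1 (1.48) was the 1 of 11 other serine, glycine and folate enzymes called. Of 17 mitochondrial synthetases 3 were higher, among them RARS2 (0.75) and PARS2 (0.74), and 1 was lower (23.5% together). In the ATF6 and XBP1 branch MANF (0.80) was higher and PDIA4 (-0.66) lower, of 20.

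In the stress programmes the shares called higher ran from 0% to 22.2%, where 8.71% of all genes were called higher. They were 3 of 15 hypoxia genes (20%), including EGLN3 (1.61) and NDRG1 (1.56), and 2 of 18 p53 targets (11.1%), CDKN1A (1.67) and BAX (0.63). NRF2 targets gave 2 of 9 (22.2%), NQO1 (1.45) and ME1 (0.73), and interferon genes 2 of 12 (16.7%), IFI44L (2.42) and OAS1 (1.02), with a median of 0.90 over the list. Of 10 immediate early genes JUN (-1.20) was called, lower.

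The calls depended on single libraries. Leaving out uninduced replicate 1 called 6 members among 8.25% of all genes. Leaving out A673 replicate 1, 2 or 3 left 0.0249%, 0.0125% and 0.0504% of all genes called, and leaving out uninduced replicate 2 left 1.6%, so calls were lost over all genes. In these 4 fits 0 members were called by edgeR, with adjusted p of the 9 from 0.0551 to 0.164. At an unadjusted edgeR p under 0.05 there were 12 to 15 of 33 members, beside 3432 to 4213 of the 15885 to 16613 genes tested. Leaving out uninduced replicate 3 called 26 members (19 higher and 7 lower) among 62.3% of all genes. The hairpin vector and any other difference between the sh908 cells and their parent cannot be told apart in this comparison.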

How the data were processed

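Per the labels' protocols, a NucleoSpin RNA Plus kit gave the RNA and an Illumina TruSeq Stranded mRNA kit the libraries. The submitters' processing notes name fastp 0.19.5, kallisto 0.46.2 and the builds hg38 and GRCh38.p14; for strand setting and transcript annotation nothing is given in the sources used here. The authors deposited a table per library with the estimated count, the TPM and the effective length of 177816 transcripts, per the file headers. RefSeq symbols were found for 169966 transcripts (95.6%), and TPM and estimated counts were summed per symbol; 0.91 to 1.6% of counts per library had no symbol and were left out.

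Summed counts were rounded. edgeR 4.0.16 (quasi-likelihood test, Benjamini-Hochberg adjustment over all genes tested, threshold 0.05, filterByExpr, TMM) was the test, on counts summed over the 3 libraries of a line for tumour type and on libraries for sh908; DESeq2 1.42.0 and limma 3.58.1 were alternatives. Levels are TPM; differences use log2(TPM + 1). The share of variance between lines is a variance component estimate over 3 libraries a line. Line standard deviations cover 3 libraries, and nothing says that replicates were separate cultures, so p-values within A673 measure only the spread between these libraries, which may be technical. No pair of replicates agreed within counting noise (chi-square per degree of freedom 5.34 to 189). The scripts were tested on simulated counts.

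Over genes, deviations from arm means correlated by 0.771, 0.701 and 0.896 between sh908 libraries of one number. The numbers were taken as pairs there. Those of uninduced sh908 and A673 had -0.050, 0.146 and 0.193 and were not taken as pairs. Differently numbered sh908 libraries ranged from -0.836 to 0.705. Uninduced replicate 1 with induced replicate 2 had the 0.705, and uninduced replicate 2 with induced replicate 1 had 0.624. The correlations thus set replicate 3 apart in both arms but do not clearly tell replicates 1 and 2 from each other.

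Named genes follow a rule: members called in a comparison or among its 5 largest changes, the 6 with the widest spread over lines, ATF4, DDIT3 and ASNS, the 5 widest ranges within EW3, TC71 and SAOS2, and at most 2 called genes of each of 12 other lists; the remaining EW3 values, ERG, the genes above that limit and the correlated pairs were chosen after their values were seen. The tumour type calls of 1 of these lists are not reported here. The members and lists were chosen with earlier results of these data known. ASNS and SLC7A5 have overlapping genes or near copies (ASNSP1 0 to 13.5 TPM, SLC7A5P2 0.0643 to 3.16 TPM), as ATF5, SHMT2 and PCK2 have overlapping neighbours.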

Additional observations from a re-analysis of the deposited data

Results flagged for a closer look

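A line was set apart where its gap to the nearest other line, over the range of its tumour group on the log2(TPM + 1) scale, passed Dixon's 95% critical value. The 33 members gave 66 groups, of which 7 passed, where chance gives about 1 in 20 of independent groups. These groups are not independent, since they share lines and libraries, and the EW3 flags include EW3 replicate 1. In Ewing sarcoma lines, EW3 was high for CEBPB (246 TPM, next line 64.1), CHAC1 (74.8 TPM, next 12.2), PSPH (78.8 TPM, next 60.7) and VLDLR (22.6 TPM, next 3.16). Without EW3 replicate 1 the EW3 means were 195 TPM for CEBPB, 8.36 for CHAC1, 34.9 for PSPH and 7.47 for VLDLR. CEBPB and VLDLR remained highest in EW3 among the Ewing sarcoma lines, while PSPH was then lowest there. MHHES1 was high for NUPR1 (2.89 TPM, next 0.815). In osteosarcoma lines, U2OS was high for ATF5 (63.2 TPM, next 40.1) and low for STC2 (0.407 TPM, next 39.8).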

How the results depend on the processing

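Tumour type called 3159 genes and 3 members by edgeR, and 5399 and 7 by DESeq2. Leaving out one line at a time gave 1 to 4 members. A block on replicate number could not be fitted for tumour type, since line sums hold no replicate. Doxycycline called 0 genes and members; with the replicate block it called 80 and 4, and DESeq2 called 2 genes. The block without replicate 1, 2 or 3 gave 10, 7 and 167 genes with 1, 0 and 3 members, and the fit of all 45 libraries gave 12 genes. For uninduced sh908 against A673, edgeR called 2388 genes and 9 members, DESeq2 4169 and 17, and the replicate block 297 and 1, although the numbers do not pair these libraries; leaving out one library gave 2 to 10202 genes and 0 to 26 members, and not every library correlated best with its own number.

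The members' share of variance between lines, 74.6%, was 68.2 to 94.5% without one replicate number and 93.6% without EW3 replicate 1, which was chosen after seeing the data. Members lowest in TC71 replicate 3 numbered 14, and 8 on log2 CPM. Of 365 values under alternatives for the members named in each comparison, with a few medians over members, 280 kept direction and side of the threshold, 67 lost the call, 17 gained one, 1 moved and 0 reversed.

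Depth limits genes under about 1 TPM, such as NUPR1 in 9 of the 13 lines and GDF15 in 6, whose fold changes rest on few counts.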
